A study of Mus musculus with 8 samples.

Results

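The E2F transcription factors and their DP partners were examined as 10 genes chosen by name, *E2f1* to *E2f8*, *Tfdp1* and *Tfdp2*. All 10 were present among the 27179 genes of the expression table, and all 10 were among the 11406 genes with enough signal to be tested. The cells were C2C12, a single immortalized mouse myoblast line. GM cultures were sampled while dividing at about 50% confluence in medium with 10% fetal bovine serum, and 3d DM cultures were sampled 3 days after confluent cells had been moved to 2% horse serum, in which C2C12 myoblasts leave the cell cycle and fuse into myotubes. Polyadenylated RNA of each state was sequenced directly (2 input libraries per state) and after precipitation with an antibody against N6-methyladenosine, m6A (2 IP libraries per state, MeRIP-seq). Nothing in the sample records says that replicates were separate cultures, so the spread behind the p-values may be technical. In the main limma fit that spread was taken from the trend over all tested genes and not from the replicates of a gene.

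E2F proteins bind DNA as partners of a DP protein and switch on the genes of S phase. In resting cells the pocket proteins, of which the retinoblastoma protein Rb1 is the best known, hold E2F in an inactive or repressing form until cyclin-dependent kinases release it. Withdrawal from the cell cycle through this switch is a textbook step of muscle differentiation. E2f1, E2f2 and E2f3 are classed as activators, E2f4 and E2f5 as repressors that work with pocket proteins, E2f6 as a repressor that does not need them, and E2f7 and E2f8 as atypical repressors that bind DNA without a DP partner.

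*E2f1*, *E2f7* and *E2f8* were higher in GM, and no member was higher in 3d DM (limma with Benjamini-Hochberg adjustment over all tested genes, adjusted p under 0.05). At an unadjusted p under 0.05 (limma), 5 of the 10 members passed, all of them higher in GM. So did 2987 of the 11406 tested genes in either direction. The 3 called of 10 members compare with 17% of all tested genes called in either direction, of which the GM side held 9.96% and the 3d DM side 7.01%. In 6 members both GM values lay above both 3d DM values, which 37% of tested genes did, and no member had both GM values below both 3d DM values, which 16.8% did. The median log2 fold change, GM minus 3d DM on log2(value + 1), was 0.94 over the members and 0.22 over all tested genes. Values are the deposited normalized signal, in which every library sums to nearly the same total. A single entry, for which the RefSeq names used here held no symbol, took between 24.4% and 41.3% of that total, the most in 3d DM replicate 1. The values were therefore also rescaled by median-of-ratios factors, which brought the median of all genes to 0. After that 23.2% of genes were called (11.2% on the GM side, 12% on the 3d DM side), and *E2f1* and *E2f7* were the members among them. The rescaled values of 6 members were higher in both GM libraries, which 33.3% of tested genes were, and those of *E2f2*, *E2f6* and *Tfdp2* were lower in both, which 33.8% were.

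The states matched their labels. All 5 growth state markers, *Mki67* among them, were higher in GM, and all 6 myotube markers, such as *Myog*, were higher in 3d DM. The summed level of the myotube markers was 5114 in GM replicate 1 and 1163 in GM replicate 2, a ratio of 4.40, against 95442 and 132768 in 3d DM. Of 7 markers of fat and bone cells, 4 stayed under 0.1 in every library, and no value exceeded 8.5. Of 4 markers of undifferentiated reserve cells, *Myf5* was higher in GM and *Spry1* in 3d DM. In RNA of whole cultures, fewer cells of a type and less RNA per cell cannot be told apart.

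**Figure D1:**
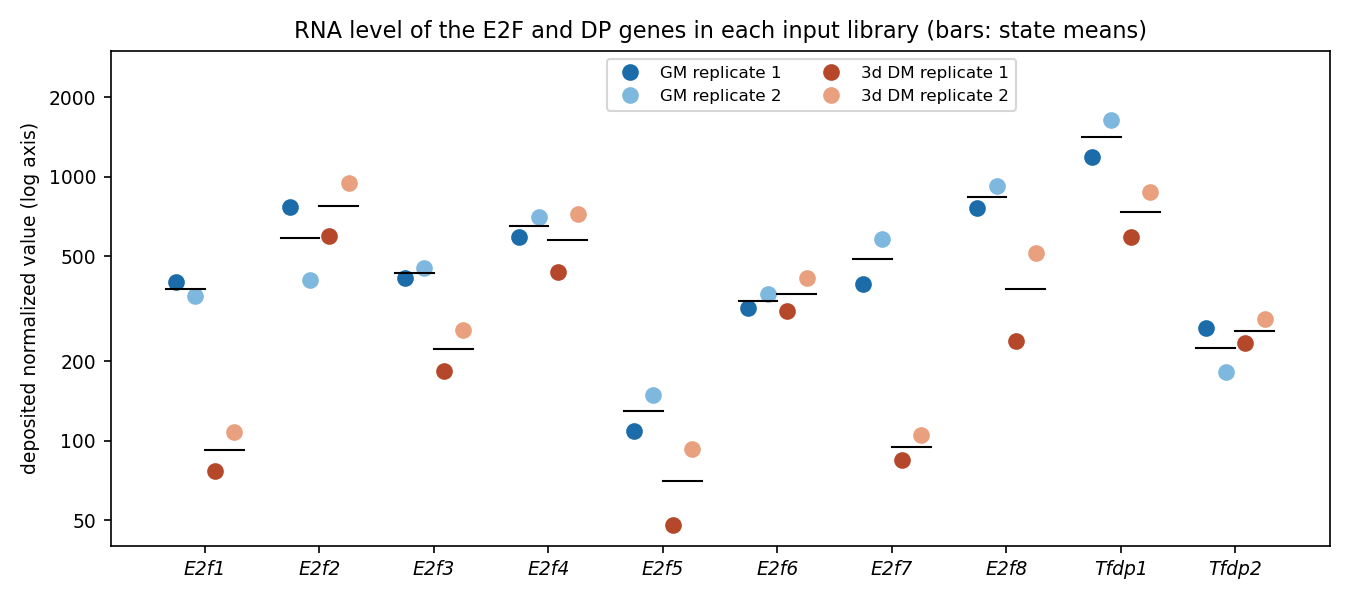
Deposited normalized value (log axis) of each E2F and DP gene in the 4 input libraries, with 1 point per library and black bars for the mean of each state. *E2f1* and *E2f7* sit between 352.2 and 583.0 in GM and between 77.0 and 108.1 in 3d DM, while *E2f2*, *E2f4*, *E2f6* and *Tfdp2* overlap between the states.

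Of the 3 activators, *E2f1* was called. *E2f1*, the activator best known for driving entry into S phase, measured 398.4 and 352.2 in GM against 77.0 and 108.1 in 3d DM, with replicate 1 given first here and throughout. The states were far apart, and the GM libraries differed little. Its log2 fold change was 2.03 ± 0.48 (SE, n = 2 per state), a level 4.07-fold higher in GM (limma, adjusted p = 0.000309). After rescaling the values were 339.5 and 353.2 against 99.2 and 98.2, with a log2 fold change of 1.80 (limma, adjusted p = 0.00409).

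*E2f2*, the second activator, measured 766.6 and 405.4 in GM against 598.6 and 950.4 in 3d DM. The states overlapped, and the highest library was a 3d DM one. The log2 fold change was -0.44 ± 0.44 (limma, adjusted p = 0.603). After rescaling the values no longer overlapped, with 653.4 and 406.5 in GM under 771.3 and 863.2 in 3d DM, but the gene was still not called (log2 fold change -0.66, limma, adjusted p = 0.122). GM replicate 1, which had the higher *E2f2* of the GM libraries, also had the higher myotube markers, and the part of the latter in the former was not tested.

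*E2f3*, the third activator, measured 413.0 and 452.6 in GM against 183.3 and 262.8 in 3d DM, so that all GM values were higher. Its log2 fold change of 0.97 ± 0.46 did not pass the threshold (limma, adjusted p = 0.143, and 0.0514 after median-of-ratios rescaling). The gene passed narrowly when trimmed-mean (TMM) factors were used for the rescaling (limma, adjusted p = 0.0497).

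Neither pocket protein-dependent repressor was called. *E2f4*, the E2F that is known to prevail in resting cells, measured 589.6 and 705.5 in GM against 434.7 and 721.1 in 3d DM. The 3d DM libraries bracketed both GM libraries, and the log2 fold change of 0.20 ± 0.44 turned to -0.02 after rescaling (limma, adjusted p = 0.847 and 0.953). *E2f5* had the smallest deposited values of the family, which are not divided by length, at 109.1 and 149.5 in GM against 48.1 and 92.9 in 3d DM. Its GM values lay above its 3d DM values, with a log2 fold change of 0.92 ± 0.52 that was not called (limma, adjusted p = 0.254).

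*E2f6*, which represses together with Polycomb-like partners, measured 317.4 and 358.2 in GM against 308.7 and 411.4 in 3d DM. Its log2 fold change of -0.08 ± 0.45 was the smallest of the family in size (limma, adjusted p = 0.946). The range over the alternative settings ran from -0.31 to 0.13.

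Both atypical repressors were higher in GM. *E2f7* had the largest change of the family, at 390.8 and 583.0 in GM against 84.4 and 105.0 in 3d DM. The lowest GM value was well above the highest 3d DM value, and the log2 fold change was 2.33 ± 0.47, a 5.03-fold higher level in GM (limma, adjusted p = 1.4e-05, and 0.00811 after rescaling). *E2f8* measured 759.9 and 922.2 in GM against 238.0 and 514.3 in 3d DM. The states did not overlap, but the 3d DM libraries differed by more than the GM libraries did. The log2 fold change was 1.26 ± 0.44 (limma, adjusted p = 0.0300), which became 1.03 and just missed the threshold after rescaling (adjusted p = 0.0501).

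Of the partners, *Tfdp1*, which encodes DP1, measured 1184.6 and 1638.7 in GM against 589.5 and 877.8 in 3d DM. All GM values were higher, yet the log2 fold change of 0.95 ± 0.43 was not called (limma, adjusted p = 0.118). *Tfdp2*, which encodes DP2, measured 266.1 and 182.7 in GM against 234.2 and 288.5 in 3d DM, with overlapping states and a log2 fold change of -0.24 ± 0.47 (limma, adjusted p = 0.827). Per kb of transcript *Tfdp1* was the highest member in 3 libraries, and in 3d DM replicate 2 its level of 349.6 per kb was below the 361.8 per kb of *E2f4*. With the union of all exons as the length, *E2f4* was above *Tfdp1* in 3d DM replicate 1 also (177.3 against 160.6 per kb). *Tfdp1* has an annotated pseudogene that could share its reads. The ratio of the *Tfdp1* to the *Tfdp2* value, which does not depend on the scaling of a library, was 4.45 and 8.97 in GM against 2.52 and 3.04 in 3d DM. The states did not overlap, and the exact permutation p of 0.333 is the smallest that 2 libraries against 2 allow.

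The calls depended on single libraries. Without 3d DM replicate 1 no member passed. The log2 fold changes were then 1.78 for *E2f1*, 2.17 for *E2f7* and 0.70 for *E2f8*, against 2.03, 2.33 and 1.26 with all libraries. That fit has a single library left in 3d DM, and its standard errors no longer followed the trend of all genes alone. Both limits also hold for the fit without 3d DM replicate 2, so they are not particular to the loss of replicate 1. There the log2 fold changes were 2.27 for *E2f1*, 2.49 for *E2f7* and 1.81 for *E2f8*. Calls over all genes fell in both fits. *E2f1* also missed the threshold without GM replicate 1 (adjusted p = 0.0561), *E2f7* without GM replicate 2 (0.0540), and *E2f8* without either GM library (limma, adjusted p = 0.272 without replicate 1 and 0.554 without replicate 2). Both *E2f1* and *E2f7* kept a log2 fold change between 1.78 and 2.62 under every setting tried. *E2f7* and *E2f8* share 86 and 610 exonic bases with a gene on the other strand, and *E2f5* shares 26. Whether counting used strand is not stated, so reads in those stretches are uncertain. The standard errors of the main fit, with all libraries and the deposited scaling, followed the trend of all genes with signal and not the replicates of a gene.

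Levels of different members were compared only per kb of their longest coding transcript, as a share of the summed level of *E2f1* to *E2f8* in the same library. *E2f4* had the largest share in every library, 25.7% and 28.4% in GM against 33.9% and 35.0% in 3d DM. In GM it was followed by *E2f8* with 17.9% and 20.1%, above all the rest with these lengths. *E2f6* (11.4% and 11.9%), *E2f1* (12.5% and 10.3%) and *E2f2* (14.0% and 6.87%) overlapped with each other in GM. *E2f7* (6.19% and 8.56%) overlapped with both *E2f3* (7.03% and 7.13%) and *E2f5* (5.32% and 6.75%), which did not overlap with each other.

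The order changed in 3d DM. *E2f2* stood second with 19.6% and 19.4%, within the range of *E2f6* (19.9% and 16.5%), and *E2f8* had 10.0% and 13.5%. The low end was held by *E2f3* (5.59% and 4.99%), *E2f5* (4.20% and 5.05%) and *E2f1* (4.35% and 3.79%), of which *E2f5* overlapped with each of the others, and *E2f7* was last with 2.40% and 1.85%.

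Shares of *E2f1*, *E2f3*, *E2f5*, *E2f7* and *E2f8* were larger in both GM libraries than in both 3d DM libraries, and those of *E2f2*, *E2f4* and *E2f6* were smaller. *E2f2* had a mean share of 10.5 ± 5.06% in GM and 19.5 ± 0.177% in 3d DM (SD, n = 2 each), and *E2f4* of 27.0 ± 1.97% and 34.5 ± 0.752%. *E2f1* went from 11.4 ± 1.60% to 4.07 ± 0.391%. Each of these differences had an exact permutation p of 0.333, the smallest possible here, and shares within a library must sum to the whole, so they are not independent. Without GM replicate 2 the difference for *E2f2* was -5.49 points in place of -9.07, and that for *E2f5* was 0.692 in place of 1.41 (2.12 without GM replicate 1). With the union of all exons as the length, all 8 genes kept the direction without overlap, but the order of levels changed. The difference for *E2f6* was then -3.61 points in place of -6.51, its shares were 6.23% and 6.68% in GM, under those of *E2f1*, and 11.1% and 9.05% in 3d DM, under those of *E2f2*. The *E2f2* share of GM replicate 1, 17.4%, was then above the *E2f8* share of 15.5%.

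**Figure D2:**
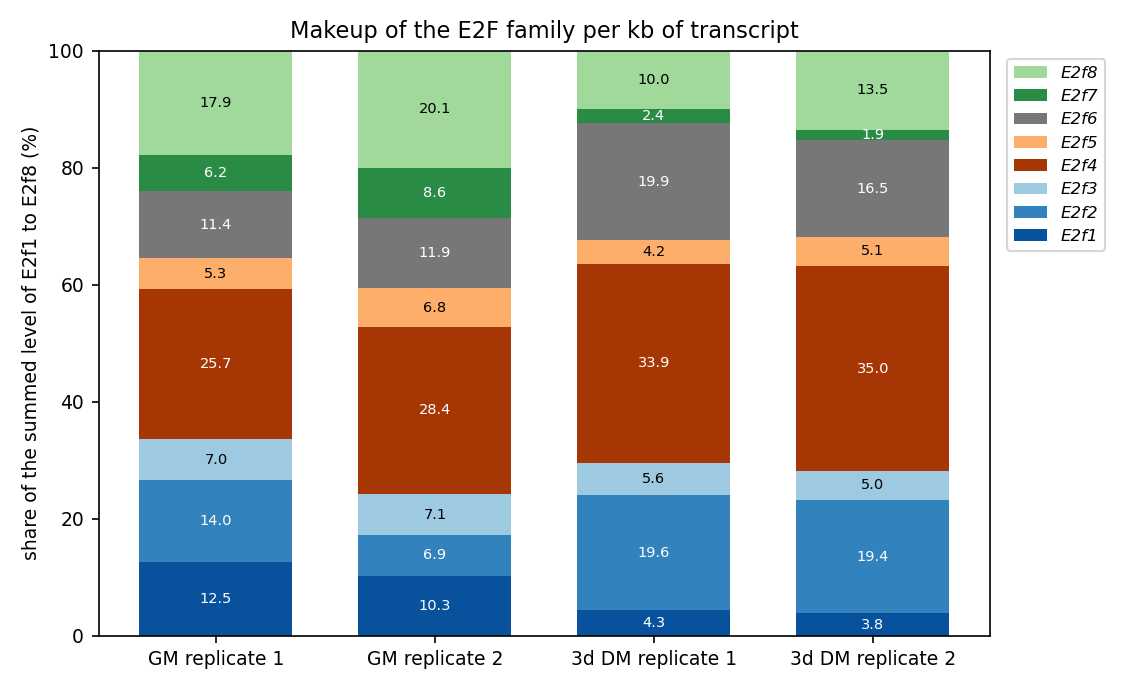
Share (%) of each member in the summed per-kb level of *E2f1* to *E2f8*, with 1 stacked bar for each input library and lengths from the longest coding transcript. *E2f4* fills the largest segment in all 4 libraries, and *E2f1* and *E2f7* are thinner in both 3d DM libraries than in both GM libraries.

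Genes around the family were described by lists, with no test of a list. Of the 11 pocket proteins, G1 cyclins and kinases, 6 were higher in GM and 2 in 3d DM, with a median log2 fold change of 1.53. Over all tested genes 9.96% were higher in GM and 7.01% in 3d DM. *Rb1* was higher in 3d DM, at 684.7 and 337.2 in GM against 1114.6 and 1643.7 in 3d DM (log2 fold change -1.49 ± 0.43, limma, adjusted p = 0.00512). Its relative *Rbl1*, which encodes p107 and is itself known as an E2F target, went the other way, at 342.5 and 428.5 in GM against 80.8 and 114.8 in 3d DM (1.98 ± 0.48, limma, adjusted p = 0.000420). *Rbl2*, which encodes p130, measured 469.0 and 297.1 in GM against 393.9 and 705.0 in 3d DM and was not called (limma, adjusted p = 0.551). The ratio of the *Rb1* to the *Rbl1* value was 2.00 and 0.787 in GM against 13.8 and 14.3 in 3d DM.

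Among the cyclins, *Ccnd1*, a D-type cyclin whose kinase inactivates pocket proteins, was 13.7-fold higher in GM, at 2394.6 and 4037.2 against 178.5 and 287.4. *Ccne1*, an E-type cyclin, was 7.41-fold higher at 358.3 and 465.6 against 37.9 and 77.4, and *Ccne2* was 5.74-fold higher. *Ccnd3* was the other gene that was higher in 3d DM, at 1338.5 and 748.7 in GM against 2234.0 and 3273.3 in 3d DM, and it is named here because of its value. In both *Rb1* and *Ccnd3* the higher GM library was GM replicate 1, the one with the higher myotube markers, whose part in these values was not tested.

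The MuvB complex joins E2f4 and pocket proteins in the repressing DREAM complex and later the activators B-Myb and Foxm1. Of the 7 genes listed for the complex and these activators, here called MuvB genes, 4 were higher in GM and none in 3d DM. The same held at an unadjusted p under 0.05 (limma), which 2987 of the 11406 tested genes passed in either direction. The median log2 fold change of the 7 genes was 1.30. *Mybl2*, which encodes B-Myb, was 14.0-fold higher in GM, at 221.4 and 572.0 against 18.4 and 32.8, and *Foxm1*, an activator of mitotic genes, was 6.79-fold higher. Within the complex itself, the core subunit *Lin9* was 2.92-fold higher and *Lin54* 2.46-fold higher. *Lin37*, *Lin52* and *Rbbp4* were not called, with log2 fold changes of -0.41, 0.14 and 0.04. These subunits are named to show the complex apart from its activators. Of 10 partners of E2f6, 1 was higher in GM, *Cbx3*, a heterochromatin protein, at 1855.5 and 1871.6 against 535.7 and 821.6. The partners *L3mbtl2* and *Wdr5* were next by p and were not called (limma, adjusted p = 0.127 and 0.289). The list's median was 0.42, close to that of all genes.

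Known targets of E2F were higher in GM almost without exception. Of 48 listed genes of DNA replication, nucleotide supply and the cell cycle, 47 were higher in GM and none in 3d DM (48 at an unadjusted p under 0.05, all higher in GM), with a median log2 fold change of 2.43 and a range from 1.17 to 3.58. The remaining gene, the phosphatase *Cdc25a*, had a log2 fold change of 1.17 ± 0.48 (limma, adjusted p = 0.0786) and is named because it stood apart. *Uhrf1*, which keeps up DNA methylation after replication, measured 1435.9 and 1798.3 in GM against 114.7 and 211.4 in 3d DM. *Cdk1*, the mitotic kinase, measured 2301.2 and 2619.2 against 192.9 and 360.1, and *Mcm5*, a subunit of the replicative helicase, 825.0 and 1461.1 against 95.1 and 149.7. Their levels were 10.3-fold, 9.28-fold and 9.13-fold higher in GM. After rescaling 46 targets were called. The summed level of the list, 33389 and 43608 in GM against 6552 and 10622 in 3d DM, moved with that of the growth state markers, 9898 and 11058 in GM against 1081 and 2197 in 3d DM, and the part of the share of dividing cells in it was not tested.

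These counts fell without 3d DM replicate 1. Without it 3 of the 48 targets, 1 of the 11 pocket protein, cyclin and kinase genes, 1 of the 7 MuvB genes and none of the E2f6 partners were called (limma, adjusted p under 0.05), and 145 of all tested genes. The fold changes of the targets moved less, with 48 of 48 still higher in GM. Their median was 2.16 on the log2 scale, against -0.03 over all tested genes. The medians of the other lists were 1.20, 1.02 and 0.09 in that order. With all libraries, 2 of the E2f6 partners passed at an unadjusted p under 0.05 (limma).

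**Figure D3:**
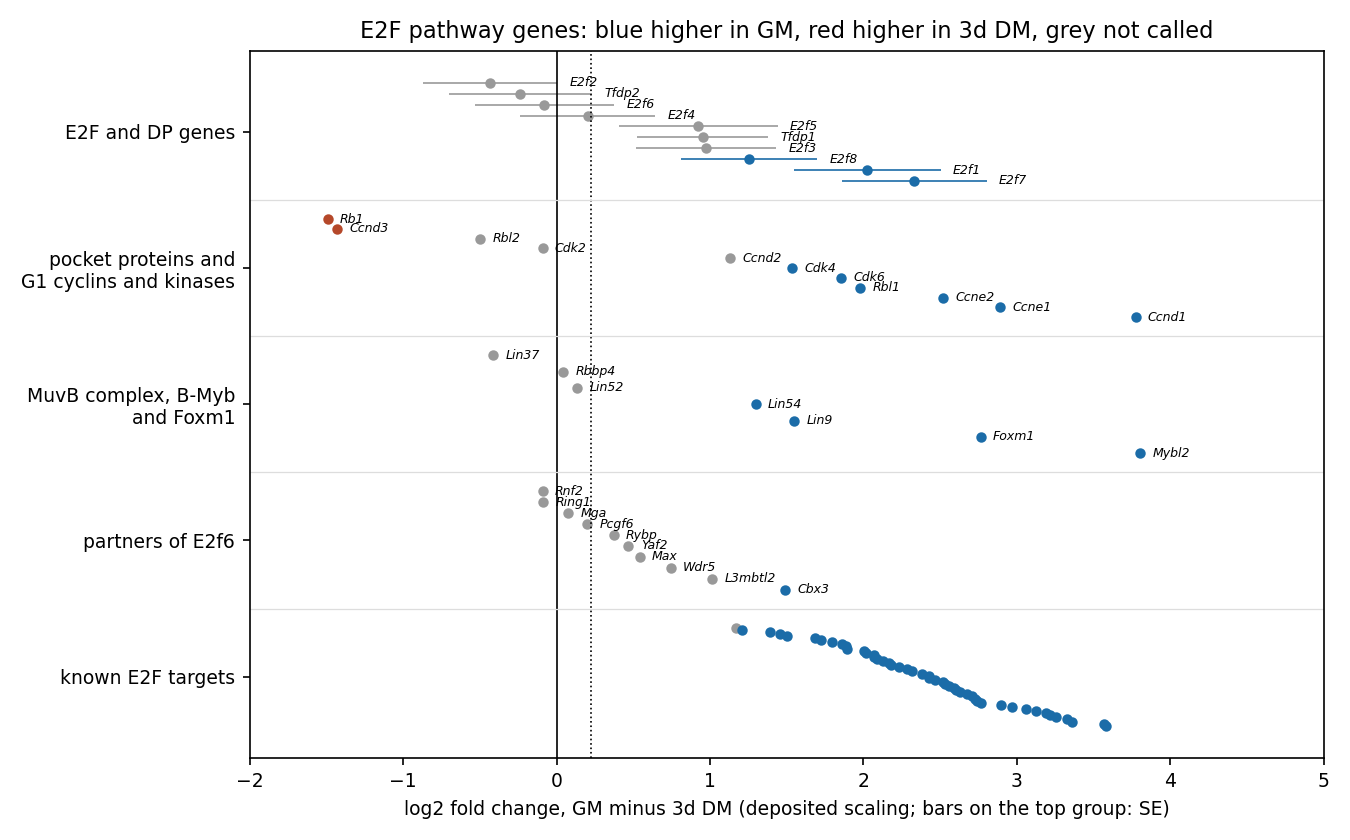
Log2 fold change (GM minus 3d DM, deposited scaling) of each gene of the family and of 4 related lists, with SE bars for the family, a solid line at 0 and a dotted line at the median of all tested genes, 0.22. The 48 known targets lie between 1.17 and 3.58, to the right of 7 of the 10 family members.

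The 5 tested genes whose pattern over the 4 libraries was nearest to that of *E2f7*, by distance of centered log2 values, were *Cenpu*, *Pcolce2*, *Chek1*, *Stk39* and *Etv4*. Their distances were 0.0450, 0.0682, 0.111, 0.124 and 0.150, and their log2 fold changes ran from 2.22 to 2.36. *Cenpu*, a centromere protein gene, measured 46.1 and 70.2 in GM against 9.0 and 11.8 in 3d DM. *Chek1*, a checkpoint kinase, was the only one of the 5 on the list of known targets. Only 4 points enter each distance.

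Promoter sequences, 250 bases before to 50 bases after a start site on GRCm38.p6 (RefSeq), were at hand for 8 of the 10 members and are shown because E2F genes are known to be regulated by E2F. They were searched on both strands for the E2F words TTTCCCGC, TTTCGCGC, TTTGCCGC and TTTGGCGC, and for TTTGAA, the cell cycle homology region (CHR) bound by MuvB. An E2F word was found for 4 of the 8 genes, *E2f2*, *E2f3*, *E2f7* and *Tfdp1*, against 2.60% of all 27025 genes with a promoter sequence, and the CHR word for 3 of 8 against 20.2%. Windows with the word in capitals, written along the strand of the gene, are:
*E2f7* (chr10:110745230-110745259, plus strand): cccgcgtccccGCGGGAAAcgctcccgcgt
*E2f3* (chr13:29986056-29986085, minus strand): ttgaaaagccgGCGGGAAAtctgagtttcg
*Tfdp1* (chr8:13338697-13338726, plus strand): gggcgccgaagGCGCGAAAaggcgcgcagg
*E2f2* (chr4:136172302-136172323, plus strand): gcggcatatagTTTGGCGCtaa
*E2f8* (CHR, chr7:48881600-48881627, minus strand): agcgggttaatTTCAAAtcgggggctgg
In *E2f7*, *E2f3* and *Tfdp1* the E2F word, and in *E2f8* the CHR word, reads on the opposite strand. In *E2f3* it begins 11 bases before the start site, and in *E2f7* 198 bases before it. *E2f1* and *E2f8*, both called, had no E2F word in this window, and *E2f2*, not called, had one. A match describes the letters and not the binding of a factor.

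Over the whole table, 447 tested genes had an E2F word in a promoter, of which 90 (20.1%) were higher in GM and 11 (2.46%) in 3d DM. Of the 8464 tested genes with a promoter sequence and no such word, 9.29% were higher in GM and 6.85% in 3d DM. Leaving out the family and the listed targets, 71 of 424 genes with the word (16.7%) were higher in GM and 11 (2.59%) in 3d DM. After rescaling these were 88 (20.8%) and 22 (5.19%), against 10.5% and 12.1% of the genes without the word. Without 3d DM replicate 1 they were 1 and 2 genes (0.236% and 0.472%), against 0.354% and 0.886% of the genes without the word, while the median log2 fold changes were 0.20 and -0.05. Among the listed targets the median log2 fold change was 2.38 in the 19 genes that had the word and 2.27 in the 20 that did not. No test was made of these shares.

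m6A peaks were found on 9 of the 10 members in at least 1 IP library, against 75.1% of the tested genes, and on 6 in all 4 libraries, against 42%. The exception was *E2f5*, the member with the smallest deposited values. The authors called the peaks in each IP library against its own input, and the fold is IP over input. The GM libraries had 17 and 14 distinct peaks on 9 members each, and the 3d DM libraries 14 and 10 on 8 and 6 members. Over all tested genes, 63% and 59.6% had a peak in the GM libraries and 61.9% and 52.8% in the 3d DM libraries, so that 3d DM replicate 2, with the fewest family peaks, also had the fewest genes with a peak. Neither difference between the states could pass a test with 2 libraries per state (exact permutation p = 0.667 for peaks and 0.333 for members with a peak). The lists give no read numbers, so a member without a peak was not detectably enriched at an unknown depth.

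Peaks merged over the libraries into 22 sites, numbered along each transcript. Of these, 6 were called in all 4 libraries, 3 in 3 libraries, 6 in 2 and 7 in 1. By the authors' region labels 10 sites lay in the coding sequence alone, 7 in the 3′ UTR alone and 5 in both. The DRACH sequence, the short context in which m6A is known to be written, occurred 23.7 times per kb inside the members' peaks and 19.0 times per kb in the rest of their transcripts. Among members with a peak, only *Tfdp1* had fewer inside, 17.9 against 22.6 per kb. *E2f7* site 5, *E2f6* site 2 and *E2f3* sites 3 and 4 held none in the bases common to the libraries that called them. Every one of the 6 sites of all 4 libraries held it in the bases that the 4 libraries shared. At 19.0 per kb, stretches as long as these, 90 to 306 nt, are likely to hold it anyway, so this does not set them apart. The windows below, on mm10 and along the transcript, show for each such site and for *E2f1* 1 DRACH match in capitals, a GGAC match where there was one and otherwise the match nearest the middle of the shared bases:
*E2f2* site 1 (chr4:136192934-136192958, plus strand): ccccgcccttGGACCaggacgaata
*E2f3* site 2 (chr13:29909991-29910015, minus strand): tgctccaagaGGACTacctgctgag
*E2f4* site 1 (chr8:105301404-105301428, plus strand): cagttcatctGGACCcaacccttct
*E2f6* site 1 (chr12:16825380-16825404, plus strand): agtgagtgaaGAACTcagagtgagc
*E2f8* site 3 (chr7:48870896-48870920, minus strand): ctggatccaaAGACCctacagacgc
*Tfdp1* site 1 (chr8:13377849-13377873, plus strand): catcgtgtctGGACAccttttctct
*E2f1* site 1 (chr2:154560698-154560722, minus strand): gtgactttggGGACCtgacccctct
The peaks are far wider than these windows, and which adenosine was methylated was not measured.

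**Figure D4:**
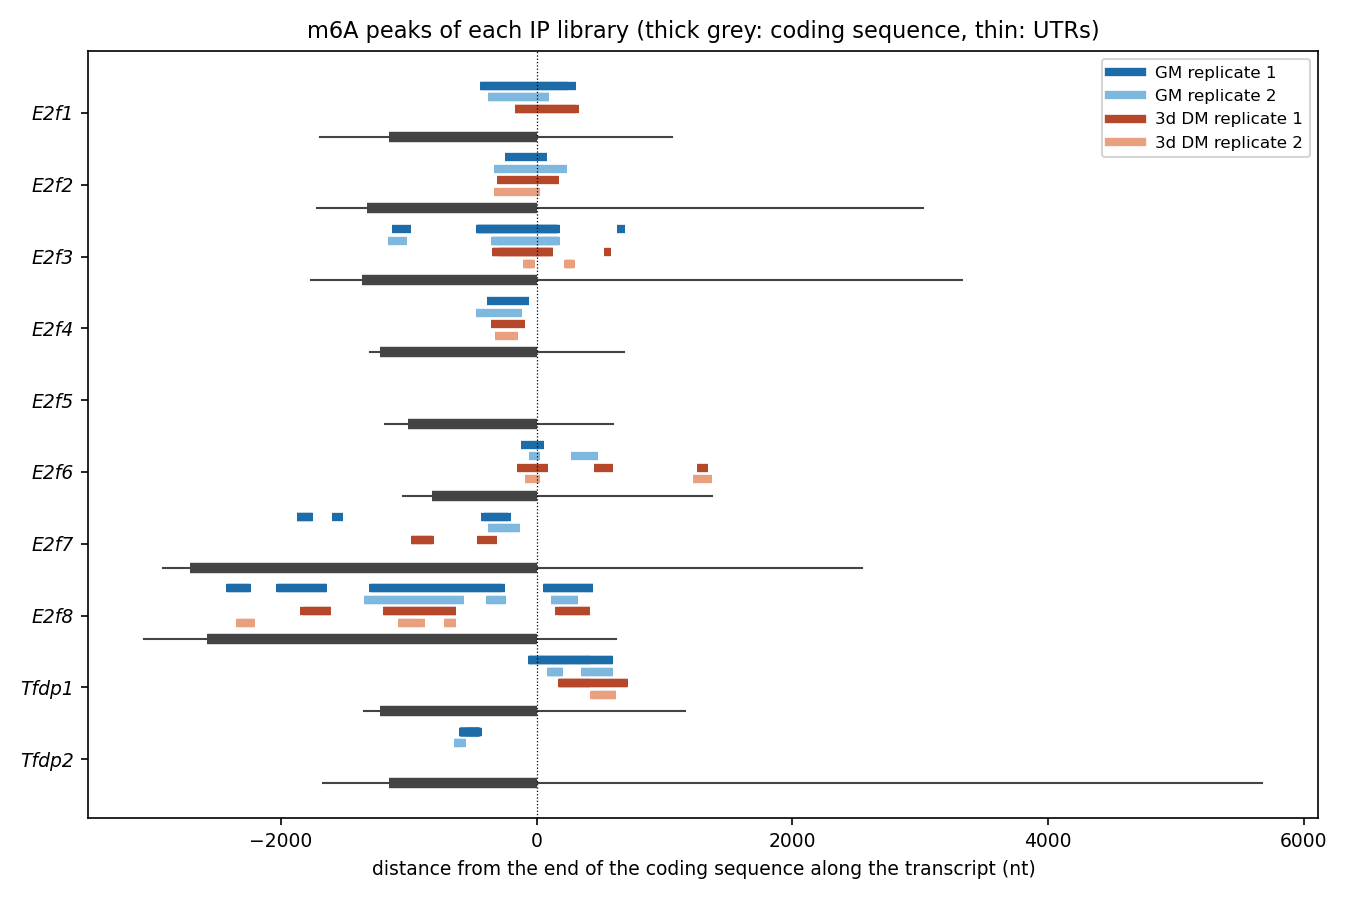
Peaks of each IP library along the longest coding transcript of each member, as distance in nt from the end of the coding sequence, with the thick grey bar for the coding sequence and the thin line for the UTRs. Peaks of *E2f1*, *E2f2*, *E2f3* and *E2f6* cross the dotted line at the end of the coding sequence in most libraries, those of *E2f8* spread over the coding sequence, and *E2f5* has none. *E2f7* site 1, which lies in another transcript, is not drawn.

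Among the activators, *E2f3* and *E2f2* had sites in all 4 libraries. *E2f3* site 2 (chr13:29909723-29913484), from 477 nt before to 183 nt after the end of the coding sequence, had the highest folds of these sites, at 8.89 and 9.50 in GM against 7.86 and 5.57 in 3d DM. *E2f2* site 1 (chr4:136186933-136193268), from 337 nt before to 234 nt after that end, had folds of 5.41 and 5.96 in GM against 4.20 and 5.39 in 3d DM. In both, the GM folds were above the 3d DM folds, at *E2f2* only just, with 5.41 as the lowest GM and 5.39 as the highest 3d DM fold. *E2f3* site 1 (chr13:29920210-29985463) in the coding sequence was called in both GM libraries, at 3.94 and 7.82, and in neither 3d DM library. The remaining *E2f3* sites lay in the 3′ UTR and were each called in a single library. Site 3 had a fold of 10.9 in 3d DM replicate 2, site 4 of 4.02 in 3d DM replicate 1 and site 5 of 2.26 in GM replicate 1.

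*E2f1* site 1 (chr2:154560357-154561226) reached from 441 nt before to 334 nt after the end of the coding sequence. Its folds were 4.45 and 3.27 in GM and 5.82 in 3d DM replicate 1, and no peak was called in 3d DM replicate 2. So *E2f1*, with 4.07-fold less signal in 3d DM, still had a peak in 1 of the 3d DM libraries, and with the higher fold.

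*E2f4* site 1 (chr8:105300560-105304627), in the coding sequence over 5 exons, had folds of 2.08 and 2.74 in GM against 2.51 and 2.54 in 3d DM. *E2f6* site 1 (chr12:16824583-16825469), across the end of the coding sequence, had 2.57 and 3.13 in GM against 2.81 and 3.11 in 3d DM. In both, the states overlapped. *E2f6* site 2 (chr12:16825648-16825976) in the 3′ UTR was called in GM replicate 2 at 5.35 and in 3d DM replicate 1 at 2.03. *E2f6* site 3 (chr12:16826603-16826752), near the end of the 3′ UTR, was the only site called in both 3d DM libraries and neither GM library, with folds of 2.58 and 4.18.

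*E2f8* carried 4 sites, of which 3 lay in the coding sequence. Site 1 (chr7:48878019-48878568) was called in 1 library of each state, with a fold of 3.12 in GM replicate 1 and the higher fold of 7.52 in 3d DM replicate 2. Site 2 (chr7:48873357-48875683) had 2.59 in GM replicate 1 and 2.68 in 3d DM replicate 1. In neither were both libraries of a state called.

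Site 3 of *E2f8* (chr7:48867716-48872125), the longest with 1111 exonic nt, had folds of 5.05 and 7.71 in GM against 3.56 and 3.90 in 3d DM, with all GM folds higher. Site 4 (chr7:48866608-48866997) in the 3′ UTR had 5.41 and 3.49 in GM and 3.88 in 3d DM replicate 1. *E2f7* site 5 (chr10:110782323-110784701) in the coding sequence was called in the same 3 libraries, at 3.06 and 6.85 in GM and 6.35 in 3d DM replicate 1. The other 4 sites of *E2f7* were each called in a single library. Sites 1, 2 and 3 had folds of 9.62, 2.41 and 3.06 in GM replicate 1, and site 4 had 14.8 in 3d DM replicate 1, the highest fold of the family.

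*Tfdp1* site 1 (chr8:13377217-13378000), mostly in the 3′ UTR, had the lowest folds of the shared sites, at 1.71 and 2.21 in GM against 2.24 and 2.12 in 3d DM. The 2.21 came from a peak 87 to 207 nt past the end of the coding sequence. It did not overlap the 3d DM replicate 2 peak, at 414 to 624 nt. The GM replicate 2 peak that did, at 348 to 588 nt, had 1.71, and with it both GM folds were below both 3d DM folds. *Tfdp2* site 1 (chr9:96300399-96310546) in the coding sequence was called only in the GM libraries, at 5.69 and 3.72. Its smallest p-values were 0.000129 and 0.0038 (exomePeak, the authors' peak caller), so it did not pass a threshold of 1e-05. A peak in both GM libraries and neither 3d DM library was seen in 2.63% of tested genes. The *Tfdp2* signal of the 3d DM input libraries, 234.2 and 288.5, overlapped with that of the GM ones.

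Of the 6 sites of all 4 libraries, 3 (*E2f2*, *E2f3* and *E2f8*) had both GM folds above both 3d DM folds, against 21.8% of 6055 such sites over all genes, and none had them below, against 9.13%. These counts take the highest fold of a library at a merged site. At *Tfdp1* that of GM replicate 2 came from a peak apart from the 3d DM replicate 2 peak. The difference of the state means was 0.89 at *E2f2* (5.69 ± 0.389 in GM and 4.80 ± 0.841 in 3d DM; SD, n = 2 each), 2.48 at *E2f3* (9.20 ± 0.431 and 6.72 ± 1.62) and 2.65 at *E2f8* (6.38 ± 1.88 and 3.73 ± 0.240). Each of these has the smallest exact permutation p possible, 0.333. Leaving out a library moved them by over 1.5 times, to 0.295 at *E2f2* without 3d DM replicate 1 and 1.49 without 3d DM replicate 2, to 1.33 at *E2f3* without 3d DM replicate 2 and to 1.32 at *E2f8* without GM replicate 2 and 3.98 without GM replicate 1. With the median fold of the lines at a site, the difference at *E2f8* was 1.53. At *E2f4*, *E2f6* and *Tfdp1* the differences were -0.115, -0.11 and -0.22, within the spread of the GM libraries. Over all shared sites the median of the highest fold was 5.41 and 4.79 in GM against 4.50 and 4.95 in 3d DM.

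**Figure D5:**
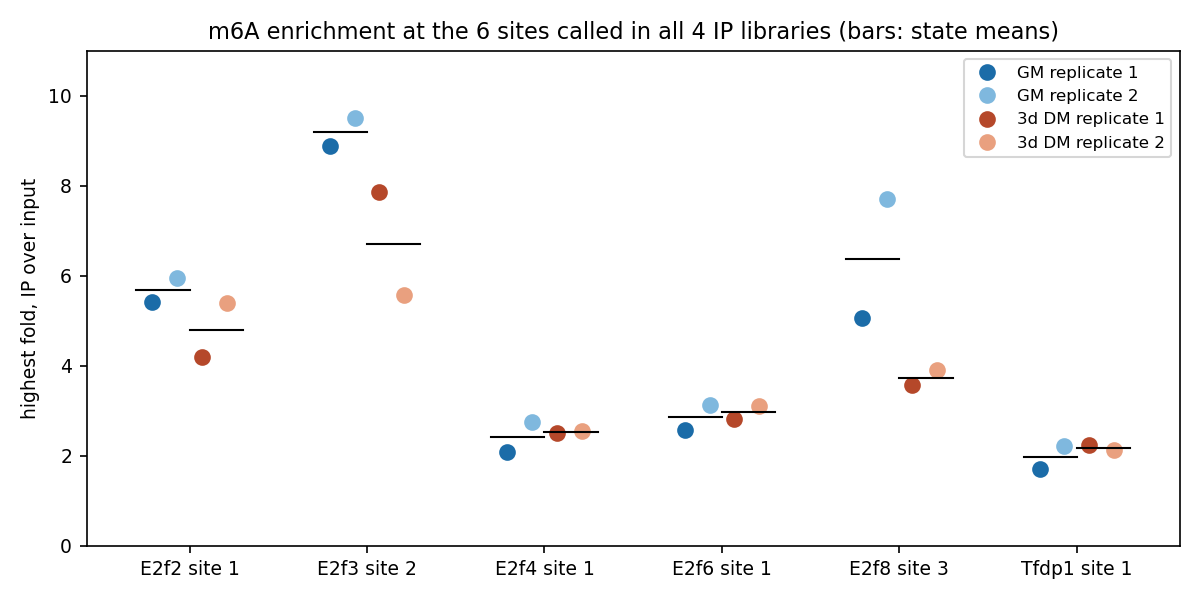
Highest fold of IP over input at the 6 family sites called in all 4 IP libraries, with 1 point per library and black bars for the mean of each state. The GM points of *E2f2*, *E2f3* and *E2f8* lie above the 3d DM points, and those of *E2f4* and *E2f6* lie on either side of them. At *Tfdp1* the GM replicate 1 point lies below the 3d DM points and the GM replicate 2 point between them.

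Peaks were also counted on the genes around the family. Of the 48 known targets, 42 and 37 had a peak in the GM libraries against 24 and 14 in the 3d DM libraries, while the level of 47 of them was lower in 3d DM. Over all tested genes the shares with a peak were 63% and 59.6% in GM against 61.9% and 52.8% in 3d DM. In 10 targets a peak was called in both GM libraries and in neither 3d DM library, which 2.63% of all tested genes had, and in none the other way round, which 1.72% had. *Rb1*, higher in 3d DM, had a peak in both 3d DM libraries, with highest folds of 2.61 and 5.13, and in neither GM library. *Rbl2* had peaks in all 4 libraries, with highest folds of 4.69, 5.37, 5.47 and 5.49, and *Rbl1* in none. The part of the level of a gene in whether a peak was called was not tested.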

How the data were processed

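The deposited files cover 2 IP and 2 input libraries for each of GM and 3d DM, grouped by the sample records. The submitters' processing notes name HISAT2 2.1.0, edgeR and the mm10 build. The authors called peaks with exomePeak in each IP library against its own input, and the deposited lists give for every peak a p-value and a fold, the ratio of IP over input RNA. The expression table deposited by the authors holds a normalized signal named for TMM, by Entrez identifier. It holds no whole counts. In the 2171 genes with values between 5 and 100, pairs of values recurred within a state in 47.4% (GM) and 55.0% (3d DM) of genes and between states in 0.461%, so the value of a library also depended on its replicate, and depth is unknown for all libraries.

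Values were taken as log2(value + 1) and compared by limma 3.58.1 (R 4.3.3) with a mean-variance trend. The 11406 genes that reached 2 cpm (a value of 25.1) in 2 or more libraries were tested, and p-values were adjusted over all of them by Benjamini-Hochberg. Fold changes on this scale understate those of low genes. In simulated data of 11406 genes for this comparison, 70 of 100 planted log2 changes of 2 and 6 of 100 planted changes of 1 were recovered, with 1 false call. The simulated libraries were drawn independently with the spread that the fit assumes. The deposited values were not independent within a state, so these rates may not hold for them. Symbols came from RefSeq by identifier for 98.7% of tested genes. Peak lines of a gene sharing at least 1 exonic bp were merged, and libraries were compared by two-sided exact permutation tests. Positions and lengths were taken from GENCODE M21 and promoters from RefSeq (GRCm38.p6). Python 3.11.15, numpy 2.4.6, pandas 2.3.3 and matplotlib 3.10.9 were used.

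The members, lists and tests were chosen with earlier results of these data known. All 10 members and every site are named, and from other lists the pocket proteins and up to 3 genes of smallest p, with growth and myotube markers as checks of the state, apart from the exceptions marked in the text. The shares per kb, the ratios of pairs of genes and the counts by promoter word were added after the values had been seen. Alternatives were other filters and pseudocounts (0.1 and 4), no trend, a replicate block, both rescalings, stricter peaks (p of 1e-05 or fold of 4), another merging rule, the median fold at a site, the exon union as length, and each library left out.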

Additional observations from a re-analysis of the deposited data

How the results depend on the processing

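Of 130 alternative values of the members' log2 fold changes, 110 kept both direction and side of the threshold, 12 lost and 1 gained a call, and 7 changed sign in members that were never called: *E2f2* and *Tfdp2* without GM replicate 2, *E2f4* with median-of-ratios (-0.0228) or trimmed-mean factors (-0.0308) and without 3d DM replicate 1, and *E2f6* without GM replicate 1 or 3d DM replicate 2. With each library left out, their log2 fold changes ranged from -0.894 to 0.0234 (*E2f2*), from -0.507 to 0.0336 (*Tfdp2*), from -0.161 to 0.568 (*E2f4*) and from -0.286 to 0.127 (*E2f6*). With no filter, 154 of 27179 tested genes were called, against 1936 of 11406 in the main fit. Among them was 1 target. No member and no pocket protein, cyclin, kinase, MuvB, E2f6 partner, growth, myotube or reserve cell gene was called. With at least 2 cpm in all 4 libraries 2 MuvB genes and 1 reserve cell gene were called. With each library left out in turn the calls ranged from 0 to 3 members, 1 to 7 pocket protein, cyclin and kinase genes, 1 to 2 MuvB genes, 0 to 1 E2f6 partner, 3 to 40 targets, 2 to 5 growth, 2 to 6 myotube and 0 to 2 reserve cell genes, with the lowest count of each list reached without 3d DM replicate 1, for E2f6 partners also without either GM library. The fold differences ranged from 0.295 to 1.49 at *E2f2* site 1, from 1.33 to 3.62 at *E2f3* site 2 and from 1.32 to 3.98 at *E2f8* site 3. Those at *E2f4* site 1 ranged from -0.445 to 0.215, at *E2f6* site 1 from -0.39 to 0.17 and at *Tfdp1* site 1 from -0.47 to 0.03. Without GM replicate 1 they were 0.215, 0.17 and 0.03, and without 3d DM replicate 2 that of *E2f6* was 0.04. These causes were not tested.

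The replicate numbers are shared between the states, but nothing ties same-numbered libraries to a batch, and the correlation of the replicates' deviations was 0.290. With the replicate block, 1298 genes in place of 1936, 2 members in place of 3 (*E2f8* lost, adjusted p = 0.166 with limma), 2 MuvB genes and 0 E2f6 partners were called. Under a peak threshold of 1e-05, the GM libraries kept 9 and 10 peaks on the family and the 3d DM libraries 7 and 1. In the full lists 3d DM replicate 2 also had the fewest genes with a peak, 6294. Peaks of all genes were not counted at this threshold.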
